A study of Bos taurus with 6 samples.

Results

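The cytosolic ribosomal proteins were taken as the listed symbols that start with RPL or RPS followed by a digit, together with RPLP0, RPLP1, RPLP2 and RPSA, leaving out the RPS6K kinases. The rule took 85 of 23015 listed gene entries, 51 of the large and 34 of the small subunit. Of these, 76 encode proteins of the ribosome proper, 8 encode paralogues, and RPS19BP1 encodes a regulator of the deacetylase SIRT1 and is not a ribosomal protein. RPL41 was not analysed here.

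The counts came from longissimus thoracis muscle (LT) of 6 Korean cattle (Hanwoo) steers raised conventionally on commercial feed, with 1 library of 3′ ends of mRNA per steer. The 3 steers with a high number of fine marbling particles (NFMP) were 3-8, 10-8 and 10-9, aged 32.5, 33.8 and 34.5 months. The 3 low-NFMP steers were 3-1, 3-3 and 10-16, aged 37.8, 33.7 and 35.4 months. Total counts lay between 16283873 and 17192750 per library, and all 10 muscle fibre markers, led by TTN, were detected. Values are given in the order 3-8, 10-8 and 10-9 for high NFMP and 3-1, 3-3 and 10-16 for low NFMP, as counts per 1000000 counts of the library (CPM) after scaling by the trimmed mean of M values (TMM). Summed levels of marker lists are given without TMM scaling.

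The ribosome reads messenger RNA with its small subunit and joins amino acids with its large subunit, and most of its proteins are present in a single copy. The mRNAs of these proteins start with a terminal oligopyrimidine (TOP) tract, through which mTORC1 and LARP1 adjust their translation and stability together. In muscle, ribosome number bounds the capacity for protein synthesis, and striated muscle also makes RPL3L, a variant of the core protein RPL3.

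The ribosomal protein genes were abundant in every steer, and most leaned slightly toward high NFMP without passing the test. They took 1.95%, 2.15% and 2.59% of all counts in the high-NFMP steers and 2.08%, 2.22% and 1.90% in the low-NFMP steers. Steer 10-9 was highest, steer 3-8 was next to lowest, and the groups overlapped (2.23% ± 0.328 against 2.07% ± 0.157, SD, n = 3 each). The median level of the 84 tested members was 214 CPM against 8.55 CPM over all 15039 tested entries, and 65 members exceeded 100 CPM. Counts from 3′ ends do not scale with transcript length, so these levels were compared without dividing by length. In whole muscle, fewer cells of a type and less RNA per cell cannot be told apart.

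The question put to these genes was whether they differed between the NFMP groups. Per the study, the sequenced high-NFMP steers also had a higher marbling score and a larger rib eye area. These traits cannot be told apart from NFMP here. By edgeR's quasi-likelihood test, 2 members were higher in high NFMP at an unadjusted p below 0.05 (2 of 84, against 5.73% of all tested entries) and 0 were lower (against 5.74%). With Benjamini-Hochberg adjustment over all entries, edgeR's quasi-likelihood test called 0 members higher (against 0.519% of all entries) and 0 lower (against 0.166%). DESeq2 likewise gave 2 members higher at an unadjusted p below 0.05 (against 5.68% of all entries) and 0 after adjustment, when it called 287 of 15039 entries in either direction. With limma after quantile normalization 0 members were higher at an unadjusted p below 0.05 (against 5.13% of all entries), and after adjustment limma called 0 of all entries. No member passed the threshold of the study, a fold change above 2 together with an unadjusted p below 0.05, which 3.9% of all entries passed in edgeR. All high-NFMP steers lay above all low-NFMP steers for 9 members (10.7%, against 7.97% of all entries) and below them for 2 (2.38%, against 9.16%).

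The log2 fold changes were small and mostly of one sign. They were above 0 in 71 of the 84 members (84.5%, against 51.9% of all tested entries), with a median of 0.17 against 0.02 over all entries. Leaving out 1 steer moved the members' median to between 0.07, without steer 10-9, and 0.28, without steer 3-8. Scaling by library totals alone left 63 members above 0 and a median of 0.10, against −0.05 for all entries, whereas scaling to the summed ribosomal protein counts, which removes a shift shared by the members, turned the median to −0.02 with 38 members above 0. That scaling also moved the median of all entries to −0.14. All members but RPS26 lay within 1.5-fold of no difference (83 of 84), as did 82.6% of all tested entries.

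**Figure D1:**
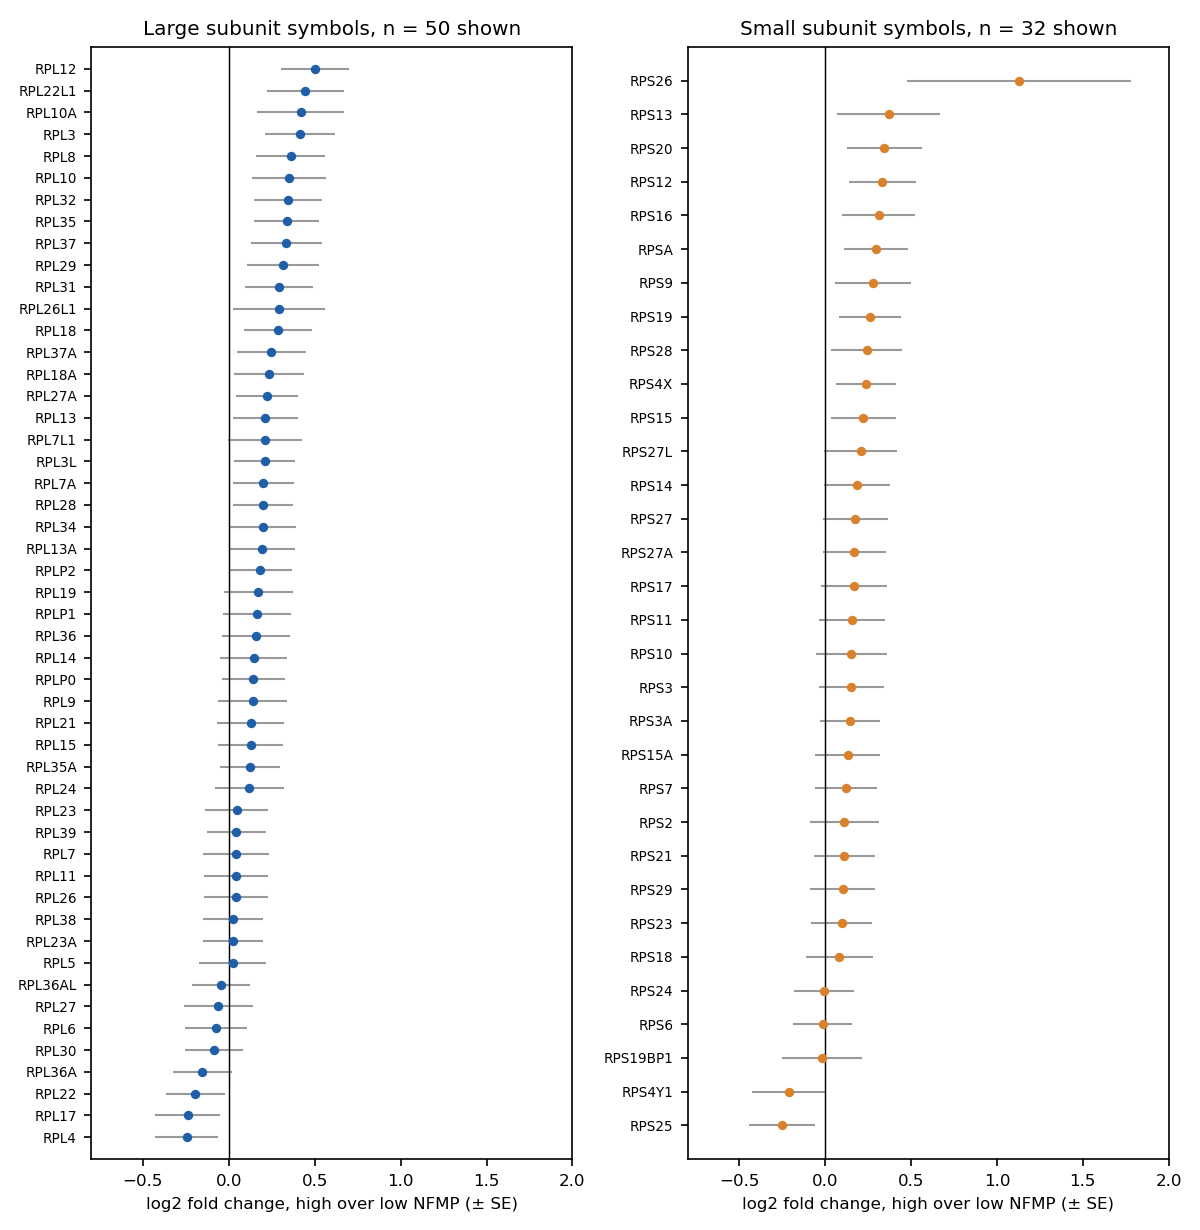
Log2 fold change of high over low NFMP with its standard error (horizontal axis) for the tested members shown, by subunit (50 large, 32 small; 3 steers per group, edgeR fit). In the large subunit the points run from −0.25 to 0.50 and in the small subunit from −0.25 to 1.13, where RPS26 stands apart with the widest error.

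The large and the small subunit had nearly the same median log2 fold change, 0.17 for the 50 tested large subunit members and 0.16 for the 34 small subunit members. Above 0 were 42 large and 29 small subunit members. The ratio of summed large to small subunit counts was 1.405, 1.367 and 1.355 in the high-NFMP steers and 1.435, 1.375 and 1.432 in the low-NFMP steers. The highest high-NFMP ratio, in steer 3-8, exceeded the lowest low-NFMP ratio, in steer 3-3, so the groups overlapped (1.38 ± 0.0257 against 1.41 ± 0.0339, SD, n = 3 each). Since every count in this ratio comes from the same library, it does not depend on library scaling. The small subunit sum includes RPS26, which had 3638, 7470 and 7503 counts in high NFMP against 881, 4415 and 3961 in low NFMP. Its part in the ratio was not tested.

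The steers differed more within the high-NFMP group than the groups differed from each other. Relative to each gene's mean over the 6 steers, the median member deviated by −0.14, 0.12 and 0.26 on the log2 scale in the high-NFMP steers and by −0.07, −0.04 and −0.10 in the low-NFMP steers. Steer 10-9 held the highest value of 53 members and steer 10-8 that of 19, whereas steer 3-8 held the highest of 0 and the lowest of 37. The lean toward high NFMP was therefore seen in 2 of the 3 high-NFMP steers, and it rested most on steer 10-9. The median log2 fold change was 0.07 without steer 10-9 (63 above 0) and 0.19 without steer 10-8 (73 above 0). Without steer 3-8 edgeR gave 19 members higher at an unadjusted p below 0.05 (22.6%, against 6.97% of all entries in that fit). Without steer 10-8, 10-9 or 10-16 that count was 0 (against 5.66%, 6.05% and 5.53% of all entries), without steer 3-3 it was 1 (against 5.32%), and without steer 3-1 it was 2 (against 4.68%), RPL12 and RPS26.

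**Figure D2:**
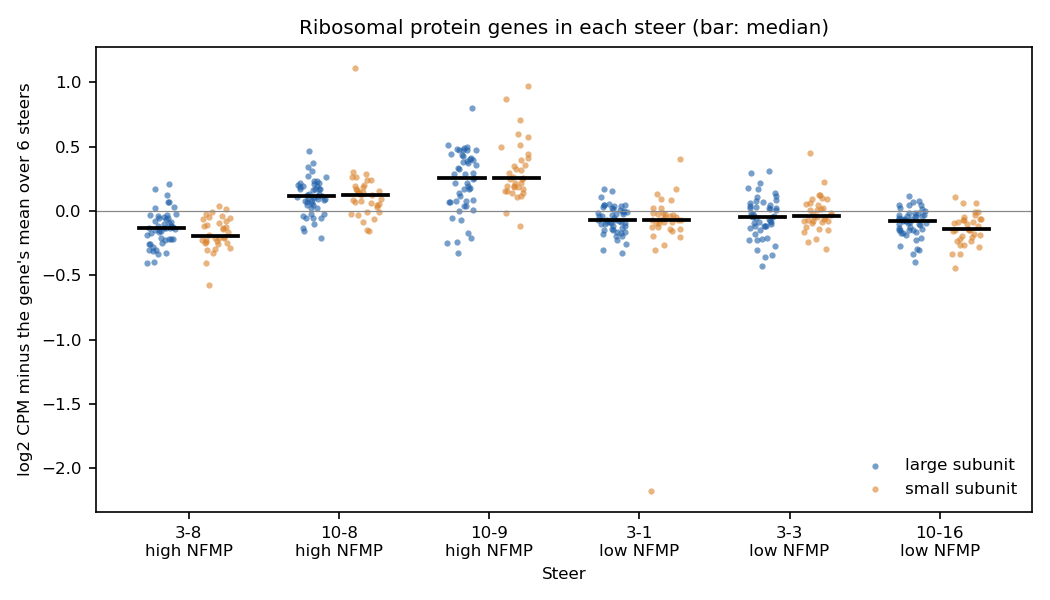
Log2 CPM of each of the 84 tested members minus its mean over the 6 steers (vertical axis) in each steer (horizontal axis), with points for genes by subunit and bars for medians. Both subunits sit above 0 in steers 10-8 and 10-9 and below 0 in the other 4 steers, and the single point far below in steer 3-1 is RPS26.

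The first number of the steer labels, which the sources used here do not explain, was shared unevenly between the groups. Among steers labelled 3, with 1 high and 2 low, the median member difference was −0.11 and 21 of 84 members were above 0. Among steers labelled 10, with 2 high and 1 low, it was 0.32 and 74 of 84 were above 0. The lean toward high NFMP did not hold within the steers labelled 3, and with this number as a term edgeR called 0 members higher at an unadjusted p below 0.05 (against 5.64% of all entries in that fit). In that fit 71 of 84 members were above 0, with a median log2 fold change of 0.10. Counts of RN18S1, an 18S ribosomal RNA entry, were 767837, 711892 and 470908 in the high-NFMP steers and 1109261, 727710 and 798362 in the low-NFMP steers. Steer 10-9, with the most ribosomal protein counts, had the fewest RN18S1 counts, and the part of this residual ribosomal RNA in the result was not tested.

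RPL12, which anchors the stalk that recruits elongation factors, had 52.3, 74.2 and 79.7 CPM in the high-NFMP steers and 53.7, 44.7 and 47.4 CPM in the low-NFMP steers. Steers 10-8 and 10-9 were high, and steer 3-8 lay below the low-NFMP steer 3-1, so the groups overlapped. It was 1 of the 2 members at an unadjusted p below 0.05, with a log2 fold change of 0.50 ± 0.20 (SE, 95% interval 0.08 to 0.92; Benjamini-Hochberg adjusted p = 0.344, quasi-likelihood test of edgeR). RPLP0, the scaffold of the stalk, had 769, 882 and 823 CPM against 743, 731 and 767.5 CPM. The 3 high-NFMP steers lay above the low-NFMP steers by a narrow margin (log2 fold change 0.14 ± 0.18, SE). RPLP1, a stalk tip protein and the most abundant member, had 1301, 1526 and 1696 CPM against 1456, 1340.0 and 1244 CPM, with a log2 fold change of 0.16 ± 0.20 (SE). Its partner RPLP2 had 267, 308 and 302 CPM against 282, 269 and 222 CPM, with a log2 fold change of 0.18 ± 0.18 (SE). In both tip proteins steer 3-8 lay among the low-NFMP steers.

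Around the peptidyl transferase centre, RPL3, whose extension reaches the catalytic site, had 62.7, 86.9 and 90.4 CPM in high NFMP against 55.5, 72.8 and 51.9 CPM in low NFMP. Steer 3-8 lay below the low-NFMP steer 3-3, and the log2 fold change was 0.41 ± 0.20 (SE). RPL8, which also lies beside the catalytic site, had 158, 217 and 257 CPM against 164, 158 and 172 CPM (0.36 ± 0.20 log2, SE). RPL10, which is added late and completes the site for transfer RNA, had 634, 911 and 1049 CPM against 698, 613 and 723 CPM (0.35 ± 0.21 log2, SE). RPL10A, of the stalk at which spent transfer RNA leaves, had 75.8, 107 and 175 CPM against 94.3, 91.9 and 81.4 CPM (0.42 ± 0.26 log2, SE). In these 4 genes steers 10-8 and 10-9 were above every low-NFMP steer and steer 3-8 was not. Without steer 10-9 the log2 fold change of RPL10A was 0.05, that of RPL10 was 0.21 and that of RPL8 was 0.21.

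The 5 lowest log2 fold changes among large subunit proteins of the ribosome proper belonged to RPL4, RPL17, RPL22, RPL36A and RPL30. RPL4, with a loop that lines the tunnel, had 258, 308 and 320.0 CPM in high NFMP against 323, 397 and 331 CPM in low NFMP. All low-NFMP steers lay above all high-NFMP steers, the nearest pair being 10-9 and 3-1, and the log2 fold change was −0.25 ± 0.19 (SE, Benjamini-Hochberg adjusted p = 0.65, quasi-likelihood test of edgeR). Scaled to the summed ribosomal protein counts, an alternative added after the data were seen, RPL4 was the 1 member lower at an unadjusted p below 0.05, against 7.77% of all entries lower in that fit (−0.42 log2, Benjamini-Hochberg adjusted p = 0.478, quasi-likelihood test of edgeR). RPL17, at the mouth of the tunnel, had 44.6, 39.6 and 33.7 CPM against 42.3, 52.3 and 44.5 CPM, with overlapping groups (−0.24 ± 0.19 log2, SE). RPL36A, near the exit site for transfer RNA, had 60.0, 64.6 and 54.0 CPM against 67.6, 69.2 and 61.9 CPM (−0.15 ± 0.17 log2, SE). RPL30, at the interface of the subunits, had 90.8, 100.2 and 83.3 CPM against 95.5, 102 and 94.1 CPM (−0.09 ± 0.17 log2, SE). In RPL36A and RPL30 steer 10-8 lay among the low-NFMP steers.

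RPL5 and RPL11, which carry the 5S ribosomal RNA and bind MDM2 when assembly is disturbed, showed no lean. RPL5 had 249.6, 234 and 340.4 CPM in high NFMP against 264, 292 and 256 CPM in low NFMP. RPL11 had 50.6, 57.3 and 71.9 CPM against 55.4, 59.7 and 59.9 CPM. In both genes steer 10-9 was highest and steers 3-8 and 10-8 did not exceed the low-NFMP range, with log2 fold changes of 0.02 ± 0.19 and 0.04 ± 0.19 (SE), whose sign turned under other scalings. RPL13A, the next most abundant large subunit member after RPLP1, had 796, 1017 and 1023 CPM against 857, 845 and 783 CPM (0.19 ± 0.19 log2, SE).

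In the small subunit, RPS26, which lies where mRNA leaves and contacts the sequence before the start codon, varied most between steers. It had 219, 494 and 448 CPM in high NFMP against 50.2, 243 and 238 CPM in low NFMP. Steers 10-8 and 10-9 were high, steer 3-1 was far below the rest, and steer 3-8 lay below the low-NFMP steers 3-3 and 10-16. Its highest value was 9.85 times its lowest, whereas the next widest member, RPS13, spanned 2.73 times. The log2 fold change was 1.13 ± 0.65 (SE, Benjamini-Hochberg adjusted p = 0.579, quasi-likelihood test of edgeR). Without steer 3-1 it was 0.68 and passed an unadjusted p below 0.05 in edgeR (Benjamini-Hochberg adjusted p = 0.553, quasi-likelihood test of edgeR, within 0.387 to 0.756 over the fits without 1 steer).

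RPS13, at the interface of the subunits, had 97.3, 154 and 266 CPM in high NFMP against 130.0, 149.8 and 120.5 CPM in low NFMP (0.37 ± 0.30 log2, SE). RPS20, of the head, had 195, 258 and 347 CPM against 211, 234 and 184 CPM (0.34 ± 0.22 log2, SE). RPS12, of the beak, had 573, 642 and 775 CPM against 560.1, 555 and 465 CPM (0.33 ± 0.19 log2, SE). Only in RPS12 among these 3 genes did all high-NFMP steers lie above all low-NFMP steers. Without steer 10-9 the log2 fold change of RPS13 was −0.07, that of RPS20 was 0.13 and that of RPS12 was 0.22.

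**Figure D3:**
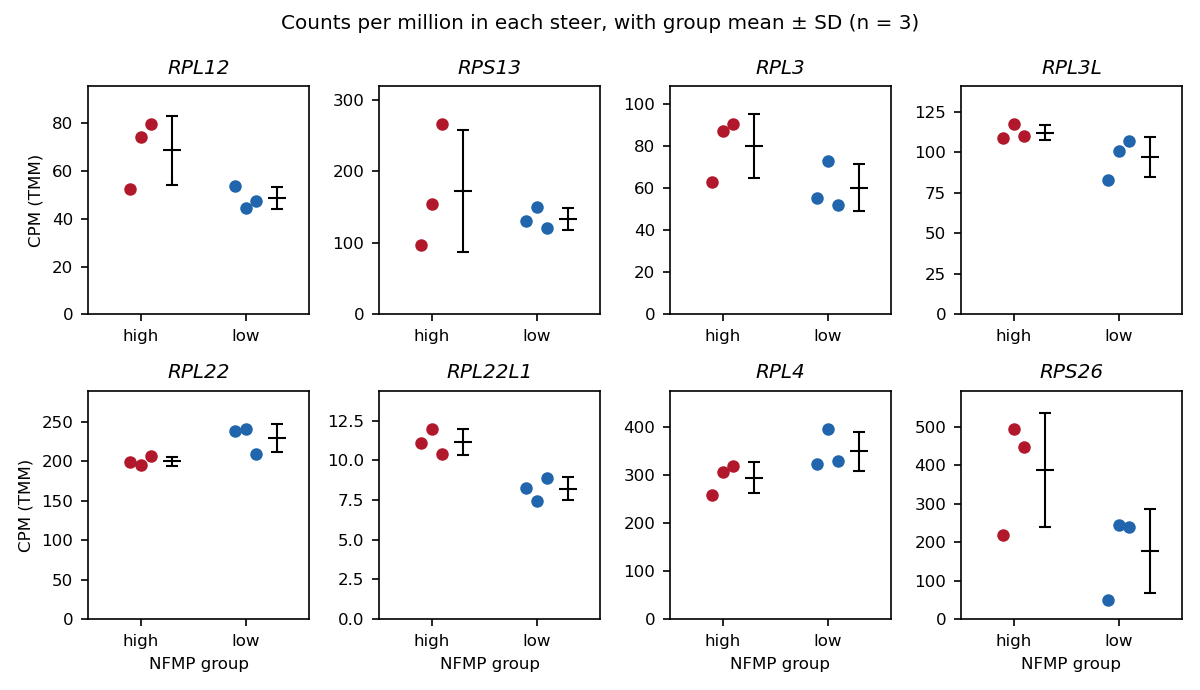
CPM (vertical axis, from 0) of 8 members in each steer by NFMP group, with points for steers in the order given in the text and bars for the group mean ± SD (n = 3). The groups separate in RPL3L, RPL22, RPL22L1 and RPL4 and overlap in RPL12, RPS13, RPL3 and RPS26.

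RPS25, a protein used by internal ribosome entry sites, had the lowest log2 fold change of all members. It had 97.9, 114 and 106 CPM in high NFMP against 112, 157 and 109 CPM in low NFMP (−0.25 ± 0.19 log2, SE). Steer 3-3 was highest, and steer 10-8 lay above steers 3-1 and 10-16. Without steer 3-3 the log2 fold change of RPS25 was −0.07, nearer to 0 than that of RPL4, −0.15. RPS6, the substrate of the S6 kinases, had 125, 126 and 144 CPM against 126, 144 and 129 CPM (−0.02 ± 0.17 log2, SE). RPS24, an early binder of the nascent subunit, had 379, 373 and 370.3 CPM against 400.0, 355 and 372 CPM (−0.01 ± 0.17 log2, SE). Neither RPS6 nor RPS24 separated the groups.

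RPS18, of the head, had 259, 342 and 350.3 CPM in high NFMP against 301, 334 and 263 CPM in low NFMP (0.08 ± 0.19 log2, SE). Its groups overlapped. RPS28, the most abundant small subunit member, had 667, 821 and 1043 CPM against 744, 744 and 653 CPM (0.24 ± 0.21 log2, SE). RPS27A, made as a fusion with ubiquitin, had 539, 546 and 584 CPM against 492, 444 and 548 CPM (0.17 ± 0.18 log2, SE). RPSA, also known as the laminin receptor, had 253, 341 and 329 CPM against 259, 225 and 267 CPM (0.30 ± 0.19 log2, SE). In RPS28 and RPSA steers 10-8 and 10-9 were above every low-NFMP steer, and in RPS27A only steer 10-9 was. Without steer 10-9 the log2 fold change of RPS28 was 0.08.

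Of the paralogues, RPL3L, made in heart and skeletal muscle, had more counts than RPL3, the protein it replaces, in every steer. It had 109, 117 and 109.9 CPM in high NFMP against 82.9, 101 and 107 CPM in low NFMP (0.21 ± 0.18 log2, SE). The groups were separated by a narrow margin, between steers 3-8 and 10-16. The log2 fold change of RPL3L was 0.104 without steer 3-1 and 0.098 with age as a term. The ratio of RPL3L to RPL3 counts was 1.74, 1.35 and 1.22 in high NFMP against 1.49, 1.39 and 2.06 in low NFMP. The highest ratio was in steer 10-16 and the lowest in steer 10-9, and the groups overlapped (log2 difference −0.20, exact two-sided permutation p = 0.5, adjusted 0.6 over 6 pairs). Without steer 10-16 the log2 difference was −0.02, without steer 10-9 it was −0.08, without steer 3-3 it was −0.31 and without steer 3-8 it was −0.34. With 3 steers per group an exact permutation test cannot go below 0.1.

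RPL22 and its paralogue RPL22L1 leaned in opposite directions. RPL22, an RNA-binding protein of the subunit surface, had 199, 195 and 206 CPM in high NFMP against 238, 241 and 209 CPM in low NFMP (−0.20 ± 0.17 log2, SE). RPL22L1 had 11.1, 12.0 and 10.4 CPM against 8.26, 7.44 and 8.89 CPM (0.44 ± 0.22 log2, SE). All low-NFMP steers lay above all high-NFMP steers in RPL22 and below them in RPL22L1. The ratio of RPL22L1 to RPL22 counts was 0.0558, 0.0614 and 0.0504 against 0.0348, 0.0309 and 0.0426. All high-NFMP ratios exceeded all low-NFMP ratios (log2 difference 0.64), at the smallest p an exact permutation test can give here, 0.1, adjusted 0.3 over 6 pairs, so the difference did not pass the test.

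RPS4Y1, a paralogue of RPS4X, had 13.1, 15.7 and 20.5 CPM in high NFMP against 19.8, 18.2 and 18.9 CPM in low NFMP (−0.21 ± 0.21 log2, SE). That log2 fold change was −0.07 without steer 3-8 and −0.05 with age as a term. The ratio of RPS4Y1 to RPS4X was 0.108, 0.103 and 0.147 against 0.171, 0.151 and 0.165. All low-NFMP ratios were higher (log2 difference −0.46), again at an exact permutation p of 0.1, adjusted 0.3. The ratios of RPL26L1 to RPL26, RPL36AL to RPL36A and RPS27L to RPS27 had log2 differences of 0.25, 0.11 and 0.01, with exact permutation p of 0.4, 0.3 and 1. RPL7L1, which acts in assembly of the large subunit, had 16.5, 18.2 and 21.2 CPM against 15.3, 19.6 and 13.5 CPM (0.21 ± 0.21 log2, SE). RPL10L, a copy of RPL10 made in testis, had 1 count in steers 3-8 and 3-1 and 0 in the other 4 steers and was not tested. RPS19BP1 had 18.0, 19.3 and 22.6 CPM against 26.3, 20.0 and 14.4 CPM, with the low-NFMP steers on both sides of the high-NFMP steers (−0.02 ± 0.23 log2, SE).

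FAU and RACK1, ribosome-associated genes whose symbols fall outside the rule, were near the members. FAU, which encodes a small subunit protein fused to a ubiquitin-like protein, had a log2 fold change of 0.31, and RACK1, a scaffold on the small subunit, had 0.24. By edgeR neither reached an unadjusted p below 0.05. Among 19 other TOP mRNAs, which include both, the median log2 fold change was 0.17, close to that of the members. Of these 19, 12 were above 0 (against 51.9% of all tested entries). At an unadjusted p below 0.05, 0 of the 19 were higher (against 5.73% of all tested entries) and 1 was lower (against 5.74%). The lower gene was EIF3E, a subunit of an initiation factor (−0.40, Benjamini-Hochberg adjusted p = 0.435 in edgeR's quasi-likelihood fit). Its level was 45.9, 60.9 and 47.5 CPM against 61.3, 74.4 and 67.6 CPM, with all high-NFMP steers below the low-NFMP steers by a narrow margin.

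Lists of genes that build ribosomes had medians on both sides of 0, and their difference from the members was not tested. The median log2 fold change was −0.10 over 24 large subunit assembly factors, −0.06 over 27 small subunit assembly factors, −0.09 over 11 genes of small nucleolar ribonucleoproteins and the nucleolus, −0.13 over 7 escorts of ribosomal proteins and 0.08 over 12 tested genes of RNA polymerase I. The escort list holds RPS19BP1, itself among the 85 members, and without it the median of the other 6 was −0.14. By edgeR, 2 large subunit assembly factors, 0 small subunit assembly factors, 0 nucleolar genes, 2 escorts and 1 RNA polymerase I gene were lower at an unadjusted p below 0.05, 0 in any of these lists were higher, and 0 passed adjustment. Together 5 of 81 were lower (6.17%), near the 5.74% of all tested entries. HEATR3, which takes RPL5 to the nucleus, had 5.85, 7.48 and 5.97 CPM in high NFMP against 9.80, 10.5 and 10.5 CPM in low NFMP (−0.67 ± 0.24 log2, SE, Benjamini-Hochberg adjusted p = 0.277, quasi-likelihood test of edgeR). All high-NFMP steers lay below all low-NFMP steers. PDCD2L, a relative of the escort of RPS2, had 3.68, 5.42 and 2.99 CPM against 11.3, 6.83 and 5.23 CPM, with overlapping groups (−0.95 ± 0.34 log2, SE, Benjamini-Hochberg adjusted p = 0.279 in edgeR's quasi-likelihood fit). EBNA1BP2, a nucleolar assembly factor, had 29.8, 28.2 and 27.7 CPM against 41.1, 43.3 and 32.0 CPM (−0.44 ± 0.19 log2, SE, Benjamini-Hochberg adjusted p = 0.389 in edgeR's quasi-likelihood fit). POLR1A, the largest subunit of RNA polymerase I, had 6.39, 4.90 and 6.09 CPM against 10.3, 7.33 and 10.5 CPM (−0.69 ± 0.26 log2, SE, Benjamini-Hochberg adjusted p = 0.316 in edgeR's quasi-likelihood fit). In EBNA1BP2 and POLR1A the groups did not overlap. NMD3, the export adaptor of the large subunit, had 8.51, 10.8 and 8.06 CPM against 10.8, 19.5 and 10.9 CPM, with steer 10-8 level with steer 3-1 (−0.59 ± 0.27 log2, SE, Benjamini-Hochberg adjusted p = 0.424 in edgeR's quasi-likelihood fit).

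Of 13 genes that control TOP mRNAs, 1 was higher and 2 were lower at an unadjusted p below 0.05 in edgeR (against 5.73% and 5.74% of all tested entries), and 0 passed adjustment. EIF4EBP2, a repressor of cap-dependent initiation, had 10.1, 8.34 and 8.30 CPM in high NFMP against 7.12, 3.75 and 4.75 CPM in low NFMP (0.77 ± 0.28 log2, SE, Benjamini-Hochberg adjusted p = 0.3 in edgeR's quasi-likelihood fit). RPTOR, the scaffold of mTORC1, had 47.8, 30.1 and 33.3 CPM against 54.6, 57.1 and 47.8 CPM (−0.52 ± 0.21 log2, SE, Benjamini-Hochberg adjusted p = 0.341 in edgeR's quasi-likelihood fit). RPS6KB1, the S6 kinase, had 9.65, 7.48 and 9.97 CPM against 17.0, 12.4 and 11.7 CPM (−0.60 ± 0.24 log2, SE, Benjamini-Hochberg adjusted p = 0.347 in edgeR's quasi-likelihood fit). In EIF4EBP2 and RPS6KB1 the groups did not overlap, whereas in RPTOR steers 3-8 and 10-16 were level.

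The 8 adipocyte markers all had log2 fold changes above 0, with a median of 0.58. Their level, led by GPD1, was summed without TMM scaling. It was 871, 685.5 and 681 CPM in high NFMP against 594, 647 and 569.9 CPM in low NFMP. Steer 3-8, next to lowest in its share of ribosomal protein counts, was highest in this sum. GPD1, an enzyme of glycerol synthesis that muscle also makes, had 259, 478 and 456 CPM against 336, 317 and 380.4 CPM, lowest in steer 3-8 and highest in steers 10-8 and 10-9 like the ribosomal protein genes. FABP4, a fatty acid carrier, had 294, 96.3 and 60.7 CPM against 96.3, 122 and 77.0 CPM, highest in steer 3-8. The markers thus differed among themselves in their order over the steers. By edgeR 3 of the 8 were higher at an unadjusted p below 0.05 (ADIPOQ 0.63, CIDEC 0.89 and LIPE 0.55 log2) and 0 were lower. Over all tested entries these shares were 5.73% higher and 5.74% lower, the background for each marker list. Of 6 fibroblast markers 1 was lower at that level (PDGFRA, −0.51 log2) and 0 were higher, while 4 of the 6 were above 0 with a median of 0.20. Of 6 tested leukocyte markers 1 was lower (ITGAM, −1.08 log2) and 0 were higher, while 3 of the 6 were above 0 with a median of 0.09. In the remaining lists 0 of 6 endothelial, 0 of 4 mural and 0 of 10 muscle fibre markers differed at that level. The 10 muscle fibre markers had a median log2 fold change of 0.22, with 8 above 0, against 0.17 for the ribosomal protein genes. Their level was also summed without TMM scaling. It was 103700 CPM, 112700 CPM and 112200 CPM in high NFMP against 107200 CPM, 111200 CPM and 123200 CPM in low NFMP. This sum was lowest in steer 3-8 and highest in steer 10-16. TTN, the most abundant, had 59197, 49790 and 56172 CPM against 60122, 55099 and 68214 CPM. In CKM, MYH7, DES, TNNT1 and TNNT3 steer 3-8 was lowest and steers 10-8 and 10-9 were above every low-NFMP steer, an order like that of the ribosomal protein genes. ACTA1, MYH1, MYH2, MB and TTN did not follow that order. Erythroid markers were near 0 (at most 2.27 CPM summed, without TMM scaling), and MYF5 of satellite cells was too low to test. Its counts were 39, 26 and 10 in high NFMP against 7, 6 and 1 in low NFMP, above every low-NFMP steer in every high-NFMP steer. The part of cell composition in the ribosomal protein values was not tested.

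By RefSeq's annotation of the assembly ARS-UCD2.0, which differs from the build of the counts and was used for gene names and neighbours alone, all 85 members were protein-coding genes and 27 of them held 57 small nucleolar RNA genes. The median log2 fold change was 0.18 for the 27 members with such a gene (24 above 0) and 0.16 for the 57 tested members without one (47 above 0). Of the small nucleolar RNAs, 49 were listed, 6 were tested, all 6 were above 0 with a median of 0.56, and 0 passed an unadjusted p below 0.05 in edgeR. Of all 49 tested small nucleolar RNAs, 32 were above 0 with a median of 0.41, and 10 were higher and 1 lower at that level (against 5.73% and 5.74% of all tested entries).

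Some members shared their place with another gene. In that annotation 11 members overlapped another protein-coding or long noncoding gene, and 10 of these neighbours were tested. For 5 of them the count was nearly that of the member in every steer, at 0.898 to 0.985 times for WDR38 and RPL35, 1.00 to 1.01 times for IQCG and RPL35A, 0.998 to 0.999 times for LOC101902407 and RPLP0, 0.968 to 0.998 times for LOC101903734 and RPSA, and 0.998 to 1.07 times for LOC107131323 and RPS9. Whether the same reads were counted for both genes was not tested, and the values of these 5 members are uncertain to that extent.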

How the data were processed

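RNA of LT from 6 steers was sequenced from 3′ ends of mRNA with a Lexogen kit, named SENSE 3′ in the methods of the study and Quant-Seq in the labels, as single-end reads. The deposited values are raw counts per gene, 1 table per steer. Per the methods, the authors mapped reads to UMD3.1 with Tophat2, counted with HTSeq, and also aligned with Bowtie2 and used unique and multiple alignments, and the submitters' processing notes name Bowtie2 and bedtools; the sources used here do not say which step made the tables or whether strand was used. Reads of near-identical copies, which are many for ribosomal protein genes, may therefore be split, left out or counted more than once.

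Testing used edgeR 4.0.16 under R 4.3.3 (TMM, quasi-likelihood test, robust fit, filter at a minimum count of 10 and a minimum total of 15, Benjamini-Hochberg adjustment over all 15039 tested entries). The steps were tested on simulated data. Total counts of 16283873 to 17192750 per library and a biological coefficient of variation of 25.1% set the precision. Count ratios used a pseudocount of 0.5 and an exact two-sided permutation test over steers. No 2 libraries agreed within sampling noise. Alternatives were filters, size factors, library totals, DESeq2 1.42.0, limma 3.58.1 with quantile normalization, age or label number as a term, summed repeated symbols, and leaving out each steer. Scaling to the summed ribosomal protein counts, the other 5 paralogue pairs and the medians within label numbers were added after the data were seen.

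The members and lists were chosen with earlier results of these data known. Named were members at an adjusted p below 0.05, the 5 highest and 5 lowest log2 fold changes per subunit among proteins of the ribosome proper, the 3 most abundant per subunit, RPLP0, RPLP1, RPLP2, RPSA, RPS6, RPS27A, RPL5, RPL11, RPL3, all paralogues, RPS19BP1, and list genes at an unadjusted p below 0.05. GPD1, FABP4, the muscle fibre markers named singly and the genes that overlap members were named after their values were seen. Some genes that this rule or the lists select are not reported here, though counts and medians over all members and lists include them.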

Additional observations from a re-analysis of the deposited data

How the results depend on the processing

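The medians of both subunits stayed above 0 under each filter, scaling, tool and added term for which they were computed, scaling to the summed ribosomal protein counts not among them, and without each steer in turn, at 0.08 to 0.27 for the large and 0.07 to 0.29 for the small subunit without a steer. In each fit, edgeR, DESeq2 and limma alike, 0 members passed the adjusted threshold, and without steer 3-8, where 19 members were higher at an unadjusted p below 0.05 in edgeR (against 6.97% of all entries), the smallest adjusted p of a member was 0.143 (Benjamini-Hochberg in the quasi-likelihood test of edgeR). The count of members higher at that level was 2 (against 5.73% of all entries), and it was 1 with library totals alone (4%), 0 with quantile normalization in limma (5.13%), 0 with label number as a term (5.64%), 0 scaled to the summed ribosomal protein counts (2.55%, with 1 member lower against 7.77%), and 0 to 19 without 1 steer. The cause was not tested.

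Of 35 members named and fitted, 25 kept their sign in all settings, and 28 did so leaving aside the scaling to the summed ribosomal protein counts, which centres the members by construction. With library totals alone RPL11 turned to −0.028 and RPL5 to −0.045. In limma RPL5 turned to −0.017 and RPS19BP1 to 0.034. With age as a term RPS19BP1 turned to 0.23 and RPS24 to 0.057. With label number as a term RPL11 turned to −0.037, RPS19BP1 to 0.086 and RPS24 to 0.0015. Under that scaling, RPL11 turned to −0.15, RPL5 to −0.16, RPLP0 to −0.025, RPLP1 to −0.016 and RPS18 to −0.10. Leaving out a single steer took 28 of the 35 named values to under their size divided by 1.5 or past 0, and for 17 of these the smallest value came without steer 10-9. Without 1 steer the log2 fold change ran from −0.10 to 0.15 for RPL11, −0.15 to 0.16 for RPL5, −0.069 to 0.65 for RPS13, −0.049 to 0.038 for RPS24, −0.023 to 0.38 for RPS27L, −0.067 to 0.048 for RPS6 and −0.18 to 0.21 for RPS19BP1. The cause of these turns was not tested. Intervals and tests cover the spread between these steers, with 3 per group. The smallest difference that could be detected was not estimated, for the less abundant paralogues or for other members.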
